A study of Mus musculus with 12 samples.

Results

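The sensory neuropeptides were 10 genes (Calca, Calcb, Tac1, Adcyap1, Nppb, Sst, Nts, Nmb, Gal and Npy) of the 22609 genes counted in each library. They were picked by gene symbol, with earlier results of these data known, and all 10 had a row in each of the 12 libraries. The libraries held RNA of sensory neuron fractions that were collected on a Percoll gradient, which sorts cells by density, from mouse dorsal root ganglia (DRG, which serve trunk and limbs) and trigeminal ganglia (TG, which serve face and head). The design asked which genes differ between female and male neurons of each ganglion, and TG and DRG libraries of both sexes allow the ganglia to be compared as well.

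There were 4 groups of 3 libraries, a group for each sex and ganglion (female or male, DRG or TG). All animals were naive, untreated and without transgene or injury, and their strain was labelled C57BL (C57BL/6J in the study's methods). The labels give an age of 3 to 4 months, while the study's methods give a younger range. Females were taken in estrus, and the DRG were lumbar ganglia, per the same methods. Whether the TG and DRG of 1 animal went into libraries with the same number is not stated, so p-values measure the spread between these libraries. The fraction was enriched in neurons and not pure. Summed pan-neuronal markers stood at 6566 to 11623 CPM (read counts scaled to library size with TMM factors) and satellite glia markers at 2271 to 6230 CPM. In RNA from such a mixture, fewer cells of a type and less RNA per cell cannot be told apart.

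Neuropeptides are cut from larger precursor proteins in the secretory pathway, packed into dense-core vesicles and released both in the spinal cord or brainstem and at peripheral nerve endings. In sensory ganglia they mark subsets of neurons. Calcitonin gene-related peptide (CGRP), substance P and PACAP belong to the peptidergic nociceptors and dilate vessels in the tissue they supply. Natriuretic polypeptide b and somatostatin belong to a small class of itch neurons. Galanin and neuropeptide Y are low in intact sensory neurons and are known for their induction after nerve injury.

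A pair of the members are near copies, and their shared stretch is shown because it sets how well the reads could separate them. Calca encodes alpha-CGRP and, by splicing, calcitonin. Calcb encodes beta-CGRP. In the NCBIM37 (mm9) genome Calca lies on the minus strand at chr7:121774994-121779871 and Calcb on the plus strand at chr7:121862157-121866879, so they are neighbours on 1 chromosome. The closest ungapped coding match of the GENCODE transcripts spanned 170 bases, with 11 mismatches and 93.5% identity. It runs from coding base 200 of the CGRP transcript of Calca (Calca-201) and from coding base 203 of Calcb (Calcb-201). Capitals mark the mismatched bases.
Calca: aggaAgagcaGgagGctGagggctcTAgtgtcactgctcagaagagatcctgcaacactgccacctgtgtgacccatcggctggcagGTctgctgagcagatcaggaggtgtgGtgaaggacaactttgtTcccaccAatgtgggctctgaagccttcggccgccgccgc
Calcb: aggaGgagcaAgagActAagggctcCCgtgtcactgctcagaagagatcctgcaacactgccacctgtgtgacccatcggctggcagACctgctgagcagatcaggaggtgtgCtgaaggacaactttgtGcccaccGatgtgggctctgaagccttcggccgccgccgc

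Of the 943 windows of 50 bases, the length of the reads, in Calca-201, 11 were identical to a window of Calcb and 53 (5.62%) came within 2 mismatches of one. For the calcitonin transcript (Calca-202) both numbers were 0. Values of Calca and Calcb therefore rest mostly on separable sequence, with a small part of the CGRP exon uncertain. Gene counts add up the CGRP and calcitonin transcripts of Calca and cannot tell them apart. The exons of the other members overlapped no other gene, except that those of Nmb overlapped exons of Sec11a on the same strand.

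Peptide genes are classical targets of the cAMP response element, the 8 letters TGACGTCA, and its inner part TGACG. Windows of the promoters are shown because they let the members' sequences be set beside their levels. RefSeq promoters (GRCm38.p6, 250 bases before to 50 after the start of a gene) were at hand for 9 of the 10 members, all but Calcb. On either strand, TGACGTCA was found in 1 of these 9 (Sst) and in 1.79% of the 32851 promoters of the table. TGACG, which lies inside TGACGTCA, was found in 6 of the 9 (Calca, Tac1, Adcyap1, Gal, Nts and Sst) and in 20.8% of all promoters. A member counted if any of its promoters held the motif, and Adcyap1 had more than 1. The shares over all are of single promoters, so the units differ. The windows below carry the match in capitals, on the strand of the gene, with the first 5 letters of the full element in Sst and the reverse strand match in Tac1.
Sst, chr16:23890873-23890907, minus strand: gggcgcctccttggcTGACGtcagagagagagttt
Adcyap1, chr17:93198911-93198945, plus strand: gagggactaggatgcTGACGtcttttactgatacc
Calca, chr7:114636403-114636437, minus strand: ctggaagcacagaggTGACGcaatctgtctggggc
Tac1, chr6:7555003-7555037, plus strand: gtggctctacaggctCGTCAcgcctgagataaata
These are matches of letters, not sites shown to be used. Sst, with the full element, ranked 9 of 10 in level in both ganglia. The windows of Nppb, Nmb and Npy held neither motif.

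Levels between genes were compared as RPKM, the TMM-scaled CPM per kilobase of exon. The plot of levels by library shows the wide span of the members on this scale. In DRG the mean RPKM (± SD, n = 6) was 1299 ± 566 for Calca, and it was the highest member in every library. Tac1, the precursor of substance P and neurokinin A, followed at 496 ± 183, and Calcb at 338 ± 147. Both were below Calca and ordered this way in 6 of 6 DRG libraries. Nmb, which encodes neuromedin B, a peptide of the bombesin family, stood at 194 ± 98.9 and Adcyap1, the PACAP precursor, at 76.0 ± 6.68. Adcyap1 and Nmb ranges did not overlap in either ganglion. Gal stood at 29.4 ± 9.37, Nppb at 15.4 ± 6.36, Nts (neurotensin) at 6.16 ± 5.83 and Sst at 3.04 ± 2.15 RPKM. Nts exceeded Sst in 3 of 6 DRG libraries, so this pair of neighbours was not separated.

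In TG the order was the same down to Gal, with 789 ± 359 RPKM for Calca, 429 ± 199.6 for Tac1, 162 ± 84.0 for Calcb, 134 ± 53.9 for Nmb, 60.7 ± 11.9 for Adcyap1 and 22.8 ± 9.95 for Gal. Calcb exceeded Nmb in 3 of 6 TG libraries, so these neighbours were not separated there, whereas Calcb was above Nmb in all 6 DRG libraries. Nts (6.73 ± 3.79) came before Nppb (5.65 ± 2.14) in TG and was above it in 5 of 6 libraries. Sst stood at 1.33 ± 1.41 RPKM.

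**Figure D1:**
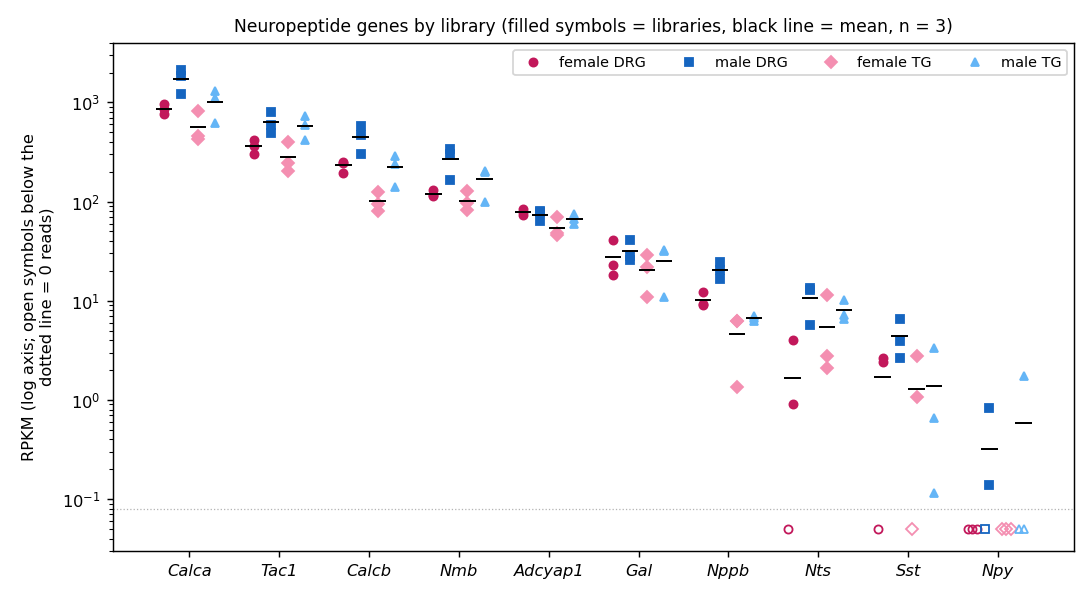
RPKM of each neuropeptide gene (log axis) in the 12 libraries, with 3 libraries per group and the group mean as a black line; open symbols below the dotted line are libraries with 0 reads. Calca is highest in every library, Nppb is the gene whose DRG and TG symbols do not overlap, and Npy is at 0 in all female libraries.

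Npy, which encodes neuropeptide Y, was at or near the limit of detection. It had 0 reads in all 6 female libraries, 5 and 1 reads in male DRG 1 and 3, and 10 reads in male TG 3, with 0 in the other 3 male libraries. A floor of 3 reads corresponded to 0.195 to 0.399 CPM depending on the library. Npy did not pass the filter on low counts in any comparison and was not tested, so the text below covers 9 members for TG against DRG and for sex in DRG, and 8 (without Sst too) for sex in TG.

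Libraries held 7511765 (female DRG 1) to 15396090 reads in genes, and reads outside genes made up 37.6% to 50.4% of the reads in or outside genes, 43.5% to 50.4% in female and 37.6% to 47.9% in male libraries. Over all tested genes, female DRG 1 stood apart on the first principal component of log2 CPM (25.1% of the variance) and female TG 3 on the third (14.6%), and results that rest on them are given without them as well. Among the low members, Sst rested on 0 to 42 reads and Nppb on 13 to 245 reads per library. Calca rested on 7159 to 33782 reads. In female DRG 1 Calca held 0.127% of the reads in genes (95% Wilson interval 0.124% to 0.129%), and in male DRG 2 it held 0.282% (0.279% to 0.285%). Such intervals and floors cover counting error within 1 library only, not the spread between libraries. PCR copies of 1 molecule could not be told from separate molecules, so the intervals may be too narrow even for counting error.

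TG against DRG was tested in 1 model of all 12 libraries with edgeR's quasi-likelihood test. Log2 fold changes are TG over DRG, and a gene was called at an adjusted p (Benjamini-Hochberg over all genes tested) under 0.05. Beta-CGRP was the 1 member called, lower in TG. Of the 14829 genes tested, 143 (0.964%) were called and 50 (0.337%) were called as higher in DRG. The members therefore held 1 call among 9 tested. An unadjusted p under 0.05 was reached by 3 members (Calca, Calcb and Nppb), all higher in DRG, against 8.83% of all genes in either direction and 4.18% with DRG higher. Of the 9 members, 8 had a log2 fold change under 0, against 51% of all genes, and their median was -0.46 against -0.01 for all genes tested. Among genes within the members' range of exon length, 60.5% lay under 0 with a median of -0.11, against 48.4% and 0.01 for longer genes.

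Calcb stood at 236, 189 and 242 CPM in female DRG and 446, 551 and 289.8 CPM in male DRG. In TG it stood at 77.8, 91.1 and 121 CPM in females and 279.5, 229 and 135 CPM in males. Within each sex every DRG library was above every TG library, but male TG 1 (279.5 CPM) was above all 3 female DRG libraries, so the 6 libraries per ganglion overlapped. The log2 fold change was -1.10 (SE 0.21, 95% interval -1.55 to -0.65), with an adjusted p of 0.0132 in edgeR. It was -1.20 in females and -0.999 in males. Neither value passed within 1 sex by itself (edgeR, adjusted p 0.180 and 0.424), where 0.175% of all genes in females and 0.209% in males did. Over the 21 alternatives the adjusted p ran from 7.1e-06 to 0.0559, and the call was lost without female TG 1 (0.0554) or without male DRG 2 (0.0559).

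Calca stood at 1132, 1277 and 1422 CPM in female DRG and at 2726, 3169 and 1809 CPM in male DRG. In TG the values were 629.7, 672 and 1207 CPM in females and 1924, 1656 and 921 CPM in males. Again the ganglia overlapped across the sexes. Female TG 3, at 1207 CPM, lay within the female DRG range, and male TG 1 was above male DRG 3. The log2 fold change was -0.69 (SE 0.22, 95% interval -1.16 to -0.23). With an adjusted p of 0.213 in edgeR it was not called. It was called in 6 of 21 alternatives (adjusted p 0.00029 to 0.535 over all), among them DESeq2 (0.0321), the fit without female TG 3 (0.0424) and the fit without female DRG 1 and female TG 3 (0.02998).

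The balance of the CGRP genes was read within each library, where depth and scaling cancel. Calcb RPKM was 32.1%, 22.7% and 26.2% of Calca RPKM in female DRG and 25.2%, 26.7% and 24.6% in male DRG. In TG it was 19.0%, 20.9% and 15.4% in females and 22.4%, 21.3% and 22.5% in males. The lowest DRG library (22.7%) was above the highest TG library (22.5%), by a narrow margin. The means were 26.3% ± 3.19 in DRG and 20.2% ± 2.70 in TG (SD, n = 6). This ratio was looked at after the fold changes were known and is given as a description without a test. Tac1 was 31.2% to 48.3% of Calca in DRG and 47.5% to 66.7% in TG, ranges that overlapped through female DRG 1 and 2 and female TG 1.

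**Figure D2:**
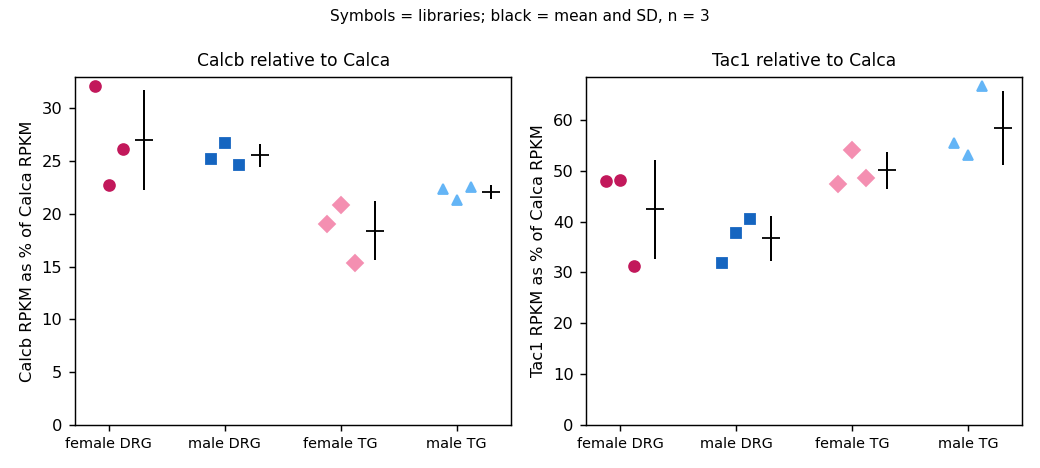
RPKM of Calcb (left) and Tac1 (right) as a percent of Calca RPKM in each library, by group, with mean and SD (n = 3) in black. Calcb is 22.7% to 32.1% of Calca in DRG and 15.4% to 22.5% in TG, while Tac1 leans the other way with overlapping ranges.

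Tac1 stood at 379, 431 and 310.4 CPM in female DRG and 608, 835 and 513 CPM in male DRG. In TG it stood at 209, 254 and 409.7 CPM in females and at 746, 615 and 429 CPM in males. The ganglia overlapped within each sex. The log2 fold change was -0.24 (SE 0.21, 95% interval -0.68 to 0.19; edgeR, adjusted p 0.888), and no alternative called it.

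Adcyap1 was the steadiest member. It stood at 164, 151 and 174 CPM in female DRG, at 134, 166 and 163 CPM in male DRG, at 96.3, 99.8 and 145 CPM in female TG and at 158, 138 and 124 CPM in male TG. The SD of its log2 CPM over the 12 libraries was 0.28, lower than that of all but 6.47% of the genes tested. Its log2 fold change was -0.33 (SE 0.17, 95% interval -0.68 to 0.02; edgeR, adjusted p 0.601).

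Nppb, the precursor of the peptide that itch neurons use to signal in the spinal cord, was the member with no overlap between the ganglia. It stood at 7.25, 7.11 and 9.48 CPM in female DRG and at 12.9, 16.0 and 19.3 CPM in male DRG. In TG it stood at 4.93, 1.04 and 4.89 CPM in females and at 5.19, 5.52 and 4.91 CPM in males. The lowest DRG library (7.11) was above the highest TG library (5.52). Of all genes tested 1.36% had no overlap between the 6 DRG and the 6 TG libraries, and 0.364% were without overlap and higher in DRG. The log2 fold change was -1.38 (SE 0.39, 95% interval -2.20 to -0.56), with an adjusted p of 0.133 in edgeR. It was not called. It was called in 3 of 21 alternatives (adjusted p 0.0202 to 0.311 over all), which were DESeq2 (0.0202), the replicate block (0.0488) and the fit without female DRG 1 and female TG 3 (0.0439).

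Sst, whose peptide somatostatin is made by the same itch class, was too low for a comparison. It stood at 0, 1.60 and 1.44 CPM in female DRG, at 3.92, 1.59 and 2.36 CPM in male DRG, at 1.67, 0.643 and 0 CPM in female TG and at 2.003, 0.0690 and 0.393 CPM in male TG. A difference was not detectable at this depth (log2 fold change -1.04, SE 1.24, 95% interval -3.64 to 1.57; edgeR, adjusted p 0.955).

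Nts was the 1 tested member with a log2 fold change above 0. It stood at 0, 1.07 and 4.74 CPM in female DRG, at 6.63, 15.9 and 15.2 CPM in male DRG, at 3.25, 2.49 and 13.6 CPM in female TG and at 8.47, 11.9 and 7.76 CPM in male TG. Its log2 fold change was 0.64 (SE 0.63, 95% interval -0.68 to 1.96; edgeR, adjusted p 0.917). Without female DRG 1 (0 reads) and female TG 3 (172 reads, the highest female value) it was -0.22.

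Nmb and Gal overlapped between the ganglia. Nmb stood at 104, 89.8 and 91.7 CPM in female DRG, 266, 238 and 130.5 CPM in male DRG, 64.7, 76.5 and 100.7 CPM in female TG and 158, 161 and 78.1 CPM in male TG. Its log2 fold change was -0.46 (SE 0.22, 95% interval -0.92 to 0.01; edgeR, adjusted p 0.573), and 1 of 21 alternatives called it, libraries 1 and 2 only (adjusted p 0.0157, with a range of 0.0157 to 0.877 over all). Gal stood at 29.1, 16.3 and 12.95 CPM in female DRG, 18.5, 28.9 and 20.0 CPM in male DRG, 7.74, 20.7 and 15.6 CPM in female TG and 23.0, 22.6 and 7.76 CPM in male TG. Its log2 fold change was -0.37 (SE 0.33, 95% interval -1.05 to 0.32; edgeR, adjusted p 0.900).

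**Figure D3:**
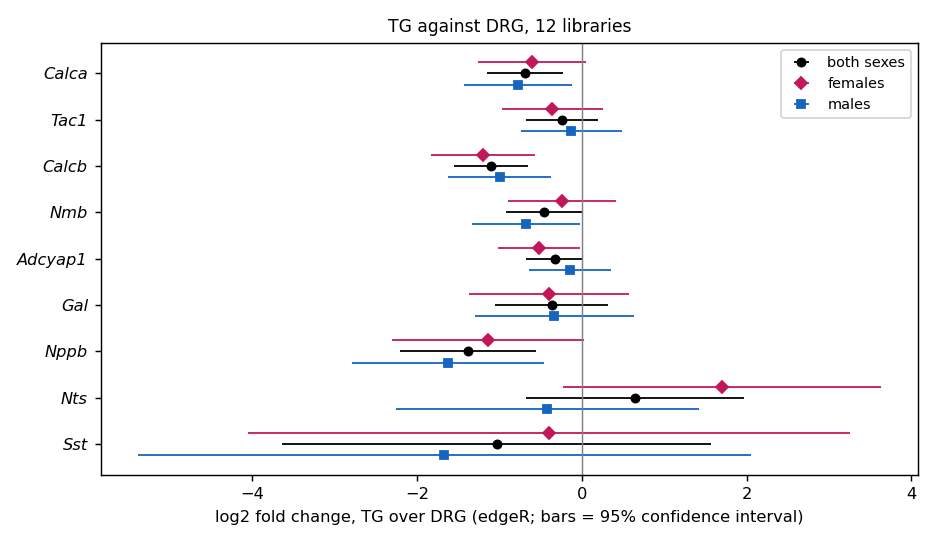
Log2 fold change of TG over DRG for the 9 members tested (horizontal axis), over both sexes (black, 12 libraries) and within females and males, from 1 edgeR model; bars are 95% confidence intervals. Calcb lies at -1.10 over both sexes, -1.20 in females and -0.999 in males, while Nts lies on opposite sides of 0 in the sexes.

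Lists of genes set around the members were read against the share of all genes called by edgeR, 0.627% as higher in TG and 0.337% as higher in DRG. Of 45 other neuropeptide precursors 18 had no read in any library, 10 were tested and 1, Vip, was called as higher in TG (log2 fold change 8.79, SE 1.79; edgeR, adjusted p 0.0244). Vip, a relative of PACAP, stood at 0, 0 and 14.0 CPM in female TG and 179, 0.138 and 149 CPM in male TG, against 0 to 0.551 CPM in DRG. The reads thus came almost all from 3 of the 6 TG libraries. Slc18a3, the vesicular acetylcholine transporter, stood at 4.82 and 1.28 CPM in male TG 1 and 3 and at 0 in the other 10 libraries. It was chosen after its values were seen, and its part in the Vip and Npy values was not tested.

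Of the 21 genes for peptide processing and dense-core vesicles, all were tested and 1, Chga (chromogranin A, a core protein of the vesicles), was called. It stood at 24.4, 24.5 and 43.5 CPM in female DRG, 20.7, 21.4 and 22.8 CPM in male DRG, 78.6, 67.1 and 48.7 CPM in female TG and 36.6, 46.6 and 49.6 CPM in male TG. It was higher in TG in each sex (log2 fold change 1.05, SE 0.21; edgeR, adjusted p 0.0177). The median of the list was 0.11.

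Of 32 receptors of the member peptides 23 were tested and 1 was called by edgeR, Sstr1, a somatostatin receptor, as lower in TG. DESeq2 called Vipr2 as well. Sstr1 stood at 7.62 to 13.2 CPM in the 6 DRG libraries and 1.06 to 2.17 CPM in the 6 TG libraries (log2 fold change -2.84, SE 0.43; edgeR, adjusted p 0.0014). The receptor list had a median of -0.20. The CGRP receptor parts Calcrl and Ramp1, chosen after their values were seen, had mean levels of 43.5 and 2.43 CPM in DRG and 36.4 and 1.41 CPM in TG (edgeR, adjusted p 0.959 and 0.957).

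Markers of the neuron classes that carry the peptides were read beside them. Of 4 peptidergic nociceptor markers 1 was called, Trpv1, the heat and capsaicin channel, at 83.4 to 171 CPM in DRG and 61.0 to 90.7 CPM in TG (log2 fold change -0.76, SE 0.17; edgeR, adjusted p 0.0425). Of 4 itch class markers none was called by edgeR or DESeq2. The highest were Osmr (70.6 ± 44.1 CPM in DRG and 33.8 ± 11.3 in TG), Htr1f (7.95 ± 2.32 and 13.4 ± 4.02) and Il31ra (8.47 ± 5.58 and 6.84 ± 4.89; SD, n = 6), and 3 of the 4 had an unadjusted p under 0.05, in both directions. Of 5 nonpeptidergic markers 2 were called, Mrgprd as lower in TG (-0.78, SE 0.17) and the receptor gene Ret as higher (0.78, SE 0.17; edgeR, adjusted p 0.0307 each).

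Of 5 large myelinated neuron markers and 12 pan-neuronal markers none was called by edgeR, with 1 and 2 at an unadjusted p under 0.05, and DESeq2 called 1 of each list as lower in TG (Pvalb and Scn10a). Ntrk2, Nefh and Spp1 led the first list at 378 ± 104, 271 ± 45.8 and 144 ± 46.1 CPM in DRG and 424 ± 73.1, 308 ± 68.0 and 127 ± 25.9 CPM in TG. Tubb3, Uchl1 and Scn10a led the second at 2383 ± 873, 1418 ± 474 and 1311 ± 312 CPM in DRG and 1665 ± 453, 1381 ± 429 and 901 ± 226 CPM in TG. Of 12 axotomy response genes, which include Gal, Npy and Vip, 9 were tested and only Vip was called. Of 8 sympathetic markers 4 were tested and 1, Th, was called as lower in TG (-3.50, SE 0.24; edgeR, adjusted p 1.4e-07). Th, which sensory neurons of the low-threshold C-fibre class also express, stood at 50.1 to 89.4 CPM in DRG and 4.42 to 9.72 CPM in TG. Of the 4 tested, 2 lay above 0 and 2 under 0. The summed list, Th included, stood at 55.5 to 155 CPM in DRG, 10.7 to 18.6 CPM in female TG and 14.5 to 43.6 CPM in male TG. In male TG the sum thus reached well above the level of Th alone. The pituitary markers, of a gland that lies next to the TG, summed to at most 2.90 CPM in any library, with Pomc, Gh and Prl the highest.

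No gene of the non-neuronal lists was called between the ganglia by edgeR or DESeq2. At an unadjusted p under 0.05 there were 2 fibroblast genes and no gene of the Schwann cell, satellite glia, macrophage, endothelial cell or red blood cell lists. Among the most abundant were Pmp22 of Schwann cells, Apoe, Glul and Fabp7 of satellite glia, Lyz2, Csf1r and C1qa of macrophages, Dcn, Col1a2 and Col3a1 of fibroblasts, Pecam1, Cldn5 and Cdh5 of endothelium and Alas2 of red cells.

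The sexes were compared within each ganglion in the 6 libraries of that ganglion, with log2 fold changes as female over male. In DRG, 8 of the 9 members tested had a log2 fold change under 0, that is a higher level in males, against 48.6% of all genes, with a median of -0.995 against 0.02 for all genes. Not one was called by edgeR, in which 5 of 13963 genes (0.0358%) were called. An unadjusted p under 0.05 with a higher level in males was reached by 6 members (Calca, Calcb, Tac1, Nppb, Nts and Nmb) and by 8% of all genes. The same 6 had no overlap between the sexes, against 9.63% of all genes without overlap and higher in males. DESeq2 called 3 (Calca, Calcb and Nmb) and gave no adjusted p for Gal, Nppb, Nts and Sst. Among the same 13963 genes DESeq2 called 283 as higher in males and 37 as higher in females, far more than edgeR.

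The sex values in DRG can be read from the libraries above. Calca was 1132 to 1422 CPM in females and 1809 to 3169 CPM in males (log2 fold change -0.995, SE 0.26; edgeR, adjusted p 0.307). Nmb was 89.8 to 104 CPM in females and 130.5 to 266 CPM in males (-1.14, SE 0.30; 0.307). Both were higher in each male library than in any female one. Calcb lay at -0.93 (SE 0.28), Nppb at -1.02 (SE 0.45) and Tac1 at -0.79 (SE 0.27). Nts lay furthest out at -2.68 (SE 1.05; edgeR, adjusted p 0.363), with 0 reads in female DRG 1. It was -2.12 without female DRG 1 and ran from -4.46 (without female DRG 3) to -2.12 with 1 library left out, and no alternative called it. Criteria adapted from the study were a fold above 2, an unadjusted p under 0.05 and a mean CPM above 1 in the higher sex, with CPM in place of RPKM and the edgeR p in place of that of DESeq. Under these adapted criteria Nppb, Nts and Nmb passed with males higher, as did 2.93% of all genes. The study's own list of sex-selective genes, chosen on these samples, holds Nts, so its direction here is not independent evidence. Adcyap1 lay at 0.08 (SE 0.25), Gal at -0.20 (SE 0.41) and Sst at -1.36 (SE 1.57), with overlapping sexes.

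In TG all 8 members tested lay under 0, against 47.2% of all genes, with a median of -0.59 against 0.05 for all genes. None was called by edgeR, in which 5 of 14009 genes (0.0357%) were called. An unadjusted p under 0.05 was reached by 4 members (Calca, Calcb, Tac1 and Nmb), all with males higher, against 9.79% of all genes, and Calcb and Tac1 had no overlap, against 12.6% of all genes without overlap and higher in males. Calcb was 77.8 to 121 CPM in females and 135 to 279.5 CPM in males (-1.11, SE 0.29; edgeR, adjusted p 0.154) and passed the adapted criteria, which 2.24% of all genes passed with males higher. Tac1 was 209 to 409.7 CPM in females and 429 to 746 CPM in males (-0.99, SE 0.29; edgeR, adjusted p 0.155). Calca lay at -0.80 (SE 0.32), Nmb at -0.67 (SE 0.30), Nts at -0.51 (SE 0.61), Nppb at -0.49 (SE 0.68), Adcyap1 at -0.25 (SE 0.23) and Gal at -0.22 (SE 0.47). DESeq2 called 2 (Calcb and Tac1), and among all 14009 genes it called 414 as higher in males and 339 as higher in females. Without female TG 3 edgeR called 4 (Calca, Calcb, Tac1 and Nts) among 3394 genes.

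Exon length moved with these sex values. All 10 members have exons shorter in sum (566 to 2088 bases) than the median gene of the annotation (2839 bases). Genes within the length range of the members had a median female over male log2 fold change of -0.47 in DRG and -0.28 in TG, against 0.09 and 0.11 for longer genes. Of these genes 71.9% lay under 0 in DRG and 62.9% in TG, against 43.2% and 43.4% of longer genes. When the trend with GC content and length was removed from each library, the median of the members went from -0.995 to -0.24 in DRG and from -0.59 to -0.02 in TG. The members under 0 went from 8 to 6 of the 9 in DRG and from 8 to 4 of the 8 in TG. Calca went from -0.995 to -0.33 in DRG and from -0.80 to -0.24 in TG, Calcb from -0.93 to -0.13 and from -1.11 to -0.44, and Tac1 from -0.79 to 0.10 and from -0.99 to -0.16. Nts in DRG went from -2.68 to -2.10. In TG against DRG the same correction took Calcb from -1.10 to -1.02, still called, and Nppb from -1.38 to -1.27.

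**Figure D4:**
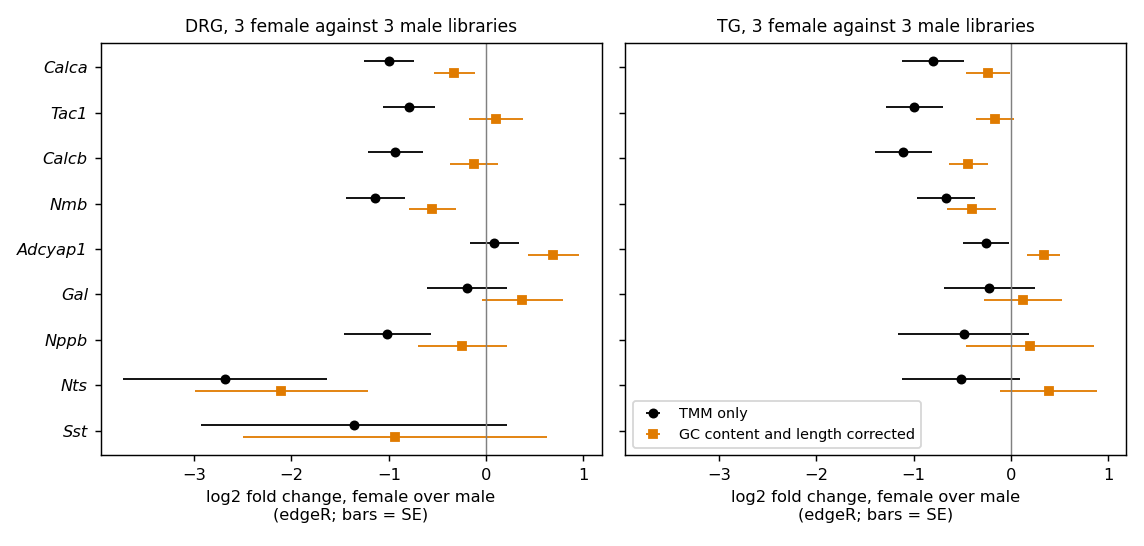
Log2 fold change of female over male (horizontal axis, edgeR, bars are SE) for the members tested in DRG (left) and TG (right), with 3 libraries per sex, before (black) and after (orange) the GC content and length trend was removed. In TG the 8 values, all under 0 before, lie between -0.44 and 0.39 after it, while Nts in DRG lies at -2.68 before and -2.10 after it.

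The sex values of markers of other cell types went both ways, and edgeR called none of them. All 6 fibroblast genes had log2 fold changes above 0 in both ganglia (3 in each at an unadjusted p under 0.05; DESeq2 called 0 in DRG and 1 in TG), with summed levels of 1030 to 2191 CPM in female and 618 to 1612 CPM in male libraries. Of 6 macrophage genes 5 in DRG and all 6 in TG had positive values (2 and 3 at an unadjusted p under 0.05; DESeq2 called 0 and 2), and summed levels ran from 114 to 395 CPM in females and 125 to 226 CPM in males. All 5 endothelial genes in DRG and 4 of 5 in TG lay above 0 (4 and 1 at an unadjusted p under 0.05; DESeq2 called Cdh5 in DRG and none in TG). Of 6 Schwann cell genes 5 lay above 0 in each ganglion, but Pmp22 lay at -0.50 in DRG and -0.52 in TG, the direction of the members. Of 5 satellite glia genes 4 in DRG and 3 in TG lay above 0. Fabp7 of that list went with the members, at 340 to 659 CPM in female and 569 to 1128 CPM in male DRG, and at 435 to 495 CPM in female and 739 to 956 CPM in male TG (-0.75 and -0.79; DESeq2 called it in TG). Of the 12 pan-neuronal markers 7 lay above 0 in each ganglion, with medians of 0.02 in DRG and 0.09 in TG (DESeq2 called Scn10a in TG, higher in females). The part of cell composition in the sex values of the members was not tested.

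The sex effect was then compared between the ganglia in the model of all 12 libraries. No member and no gene (0%) was called by edgeR or by DESeq2. At an unadjusted p under 0.05 in edgeR there were 292 genes (1.97%) and 0 members. Nts had the largest difference among the members (log2 2.12, SE 1.26; edgeR, adjusted p 0.9998), with females below males in DRG by more than in TG. It was 0.40 without female DRG 1 and female TG 3.

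The profiles of the members over the 12 libraries were compared with those of all other tested genes by the root mean square (RMS) difference of log2 CPM centred on the mean of each gene. This was done for the 4 members with an SD of at least 0.75. The nearest genes to Calcb among 14828 were Tmem45b (RMS 0.19), Synpr (0.24) and, at rank 3, Calca (0.26), followed among the members by Nmb at rank 63 and Tac1 at rank 259. For Nppb they were Fstl5 (0.40), Cdkn3 (0.48) and Fam26d (0.48), with Calcb at rank 38 and Calca at rank 65. Sst, its partner in the itch class, was at rank 10770. The RMS difference also grows with the spread of the other gene, and Sst had an SD of 1.58 on 0 to 42 reads. This rank therefore does not show whether Nppb and Sst varied together. For Nts the nearest genes were Scgn (0.56), Rassf6 (0.62) and Ccbl2 (0.64). For Sst they were Gapdh (0.66), Col11a2 (0.70) and Insrr (0.73), and Sst here rests on 2 libraries without a read. The ranks are descriptions over 12 libraries that share ganglion, sex and depth.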

How the data were processed

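The authors dissociated the ganglia, depleted ribosomal RNA, made dUTP stranded libraries and read them as 50-base single reads. The submitters' processing notes name bcl2fastq, TopHat2, HTSeq and mm9. The deposited values are whole-number read counts, not normalized, that HTSeq-count gave for each gene symbol, 1 file per sample, with 5 summary lines that are not genes and were left out of library totals. Versions, annotation and the strand setting of the counting were not given in the sources used here. HTSeq-count leaves out reads with more than 1 alignment, so near-identical sequence is undercounted.

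Genes were kept by filterByExpr (minimum count 10) and tested with edgeR 4.0.16 in R 4.3.3 (TMM, quasi-likelihood F-test, no replicate block, Benjamini-Hochberg adjustment). TG against DRG and the difference in sex effect used all 12 libraries with 4 group means. Sex used the 6 libraries of a ganglion. SE is the log2 fold change divided by the square root of F. Log2 CPM used a prior count of 2. The authors used median normalization and DESeq; DESeq2 1.42.0 was an alternative. Other alternatives were other scalings, no filter, a replicate block, a correction for GC content and length (spline, 4 df), libraries 1 and 2 only, and each library left out. A further one, without female DRG 1 and female TG 3, was chosen after seeing the data. Exon lengths came from GENCODE on NCBIM37, which matched 21627 genes (95.7%) by symbol.

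Replicate numbers were checked as pairs: deviations of same-numbered TG and DRG libraries correlated at 0.028 to 0.22, not above 0.1 in every pair, so the numbers were not taken to pair samples. On counts simulated for TG against DRG (14416 genes), 45% of 2-fold and 94% of 4-fold changes were recovered. For sex the shares were 6% and 66% in DRG (13639 genes) and 3% and 71% in TG (13651 genes). The changes were planted only in genes above a minimum mean CPM, which Sst (mean 1.31 CPM over all libraries) did not reach. The shares therefore do not hold for the lowest members.

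The members and gene lists were chosen with earlier results of these data known. The 10 members are always named. Of each list the genes called in TG against DRG are named, up to 4, or otherwise the 3 with the highest mean level, and nearest profiles are named for members with an SD of log2 CPM of at least 0.75. Exceptions are stated where they occur, and some genes that the rule names are not reported here.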

Additional observations from a re-analysis of the deposited data

Results flagged for a closer look

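Of 20 groups of 6 libraries (10 members in each ganglion, on log2 CPM), 4 held a library far from the other 5 by Dixon's criterion. Chance meets it in about 1 of 20 groups when all 6 values come from 1 normal distribution. These groups mix the sexes, and some hold ties at 0 reads, so that rate does not apply to them. The number of flagged groups is therefore a description only. Nppb in female TG 2, with 13 reads (1.04 CPM), lay below the other TG libraries with a gap of 0.923 of the whole range. Sst in female DRG 1, with 0 reads, had a gap of 0.705. Npy in male DRG 1 had 5 reads and a gap of 0.714, and in male TG 3 it had 10 reads and a gap of 1, the whole range, since the other 5 TG libraries were at 0. Male TG 3 was also 1 of the 3 TG libraries with Vip reads (149 CPM). For Sst and Npy the values rest on few reads.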

How the results depend on the processing

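Direction and side of the threshold were kept in 176 of 189 member values for TG against DRG, 112 of 126 for sex in DRG and 91 of 112 for sex in TG. In this tally a value without an adjusted p counted as not called, as for Gal, Nppb, Nts and Sst with DESeq2 for sex in DRG. For TG against DRG, where 1 member and 143 genes were called, the counts were 3 and 333 with DESeq2, 3 and 814 with libraries 1 and 2 only and 3 and 344 without female DRG 1 and female TG 3 (where Nts turned to -0.22). Without a filter 218 genes were called. Leaving out 1 library gave 0 to 2 members and 77 to 231 genes. The replicate block gave 3 members and 562 genes, and 2 and 507 with the GC content and length correction. By the check above the numbers were not taken to pair the samples. Every library correlated best with its own number for female against male in DRG (0.113, 0.032 and 0.168), a hint from the data only. This was not so for the sexes in TG (-0.098, 0.0098 and -0.094). For TG against DRG, libraries 2 and 3 correlated best with their own number in both sexes and library 1 did not. The mean of same-numbered pairs there was 0.119 in females and 0.125 in males, against 0.104 for sex in DRG. Whether the numbers pair samples is thus not settled, and no lost call is read as a weaker effect. For sex in DRG, with 0 members and 5 genes called and 3 members meeting the adapted study criteria, DESeq2 called 3 members and 320 genes, libraries 1 and 2 only gave 4 and 1418, and leaving out 1 library gave 0 members, 5 to 10 genes and 1 to 4 members meeting the criteria. The criteria were met by 1 member on library totals, after the GC content and length correction, and after it with the block. For sex in TG, with 0 members and 5 genes called and 1 member meeting the criteria, DESeq2 called 2 and 753, libraries 1 and 2 only 6 and 6251, no filter 9 genes, and leaving out 1 library 0 to 4 members and 5 to 3394 genes. There the criteria were met by 2 members with DESeq2, its size factors in edgeR or the block, 0 on library totals or with either GC content and length correction, 5 with libraries 1 and 2 only, and 0 to 4 with 1 library left out. Library totals moved the median of all genes from 0.02 to 0.19 in DRG and from 0.05 to 0.16 in TG, so sex values are relative to the TMM scale. Signs turned for Gal in DRG (0.0064 on library totals, 0.37 corrected for GC content and length, 0.28 with the block), Tac1 in DRG (0.10 and 0.039), and in TG for Adcyap1 (0.34 and 0.34), Gal (0.12 and 0.063), Nts (0.39 and 0.21) and Nppb (0.20, correction alone). With 1 library left out Gal ran from -0.62 to 0.026 in DRG and -0.61 to 0.031 in TG, and Adcyap1 from -0.0018 to 0.15 in DRG. The cause was not tested. The difference in sex effect called 0 members and 0 genes in every setting.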
